A study of Homo sapiens with 6 samples.

Results

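Microtubules are hollow polymers of alpha- and beta-tubulin that grow and shrink at their plus ends, carry the cell's long-range transport and help a migrating glial cell to hold its polarity and to move its nucleus. Lattice-binding proteins (microtubule-associated proteins, MAPs) stabilise the polymer, stathmins bind free tubulin, plus-end proteins ride on growing tips, and kinesins and dynein walk along the polymer with cargo. The 50 genes presented here cover this system in U251 cells, a long-established glioma line of human origin, cultured on electrospun nanofibers. The genes were chosen by name and role: 4 alpha-tubulins, 6 beta-tubulins, 1 gamma-tubulin, 9 lattice-binding proteins, 3 stathmins, 6 plus-end proteins, 10 kinesin subunits, 7 genes of dynein, dynactin and their regulators, and 4 kinases or tubulin-modifying enzymes. They are 50 of the 19775 genes that have a probe set with 1 gene symbol on the array. Each gene is represented by its probe set with the highest mean over the 6 arrays.

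The groups were U251 cells on highly-aligned nanofibers of poly-caprolactone (3 arrays) and U251 cells on randomly-oriented nanofibers of the same polyester (3 arrays). All 6 cultures were kept for 24 h on coated 60 mm dishes in DMEM with 10% fetal bovine serum, without further treatment, and each gave 1 Affymetrix array. The design text calls the cultures independent, and all are of a single cell line, so the results hold for that line. The question was which transcripts follow the topography of the substrate. Values are log2 signals after RMA, a background correction and normalization that brings arrays to a common distribution, so a difference of 1 is a doubling. Readings of different probe sets are not comparable as transcript levels. A gene entered the test when at least 3 arrays read above their own median, which 48 of the 50 genes and 12381 genes in all did.

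The cells carried markers that glioma lines are known for: VIM (the intermediate filament vimentin) read 14.06 to 14.21 on aligned and 14.20 to 14.26 on random fibers, and CD44 read 12.41 to 12.66 on aligned and 12.50 to 12.78 on random fibers. The 7 of 9 glioma and astroglial markers that passed the filter had a mean per array of 10.40 to 10.82 on aligned and 10.70 to 11.02 on random fibers. Of these 7, 3 had an unadjusted p under 0.05, against 10.5% of all genes: the glial transcription factor genes SOX2 at -0.44 and SOX9 at -0.53, and the growth factor receptor gene EGFR at 0.45. GFAP, the intermediate filament of astrocytes, read 4.87 to 5.80 on aligned and 5.24 to 6.65 on random fibers. The astrocyte genes S100B and AQP4 did not pass the filter and were not tested. S100B read 4.97, 4.69 and 4.04 on aligned and 5.73, 5.76 and 5.60 on random fibers, where the array medians were 5.63 to 5.66. The groups did not overlap, and only random 1 and random 2 lay above their median. AQP4 read 3.00 to 3.20 on aligned and 2.96 to 3.30 on random fibers. Of 9 neuronal markers 6 passed it, with a mean reading per array of 6.74 to 6.98 on aligned and 6.94 to 7.08 on random fibers. Of the 5 immune markers 1 passed, and CD68 had no probe set with 1 symbol. Of the 4 endothelial markers 3 passed, with a mean per array of 5.79 to 6.15 on aligned and 5.83 to 6.02 on random fibers, near the array medians. Of the 5 fibroblast markers 4 passed, and COL1A2 read highest, 9.98 to 11.65 on aligned and 11.07 to 11.84 on random fibers. The array of aligned replicate 3 stood apart, at a root mean square distance of 0.38 from the mean of the random arrays, against 0.17 for aligned 1 and 0.19 for aligned 2. The 3′ minus 5′ signal of GAPDH, a sign of RNA integrity, was 0.09 to 0.16 on aligned and 0.08 to 0.12 on random fibers, and that of ACTB was 0.09 to 0.21 on aligned and 0.17 to 0.22 on random fibers.

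The alpha-tubulin genes TUBA1A, TUBA1B and TUBA1C lie near each other on chromosome 12 and code for nearly identical proteins, but their promoters differ in sequence. The 150 bases before each transcription start are shown because TUBA1A differed by -0.57, the largest difference in size of the 11 tubulin genes, and TUBA1B and TUBA1C by -0.08 and -0.06. Without aligned 3 the difference of TUBA1A was -0.23 and TUBB2B had the largest, -0.30, and the probe sets of TUBA1B and TUBA1C read near the maximum of the arrays. The last of them, for TUBA1C, is the start closest to the gene's 3′ end of 3 listed starts. Capitals mark matches on either strand to 4 motifs, which may overlap. The first is TATAA, a core of the TATA box, and the second, the related repeat TATATA, is called TATA-like with it. The third is the GC box with the letters GGGCGG, and the last is the CCAAT box. Sequences are from RefSeq (GRCh38.p14), read 5′ to 3′ on the gene's strand. The stretches are chr12:49189081-49189230 (minus strand) for TUBA1A, chr12:49131396-49131545 (minus strand) for TUBA1B and chr12:49264932-49265081 (plus strand) for TUBA1C.
TUBA1A: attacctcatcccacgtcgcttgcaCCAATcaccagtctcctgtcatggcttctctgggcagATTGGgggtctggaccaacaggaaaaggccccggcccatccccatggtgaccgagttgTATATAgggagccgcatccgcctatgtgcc
TUBA1B: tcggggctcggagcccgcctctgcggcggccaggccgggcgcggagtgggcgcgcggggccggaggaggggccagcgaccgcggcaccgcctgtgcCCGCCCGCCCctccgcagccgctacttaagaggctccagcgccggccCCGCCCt
TUBA1C: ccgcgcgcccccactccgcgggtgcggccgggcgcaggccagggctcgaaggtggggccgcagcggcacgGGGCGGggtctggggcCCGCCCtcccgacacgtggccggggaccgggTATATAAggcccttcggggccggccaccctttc
The TUBA1A stretch held the second TATA-like motif and the CCAAT box and no GC box. The TUBA1B stretch held GC boxes and neither TATA-like motif, and the TUBA1C stretch held both of these and GC boxes. The windows of the other 2 TUBA1C starts held the CCAAT box and none of the other motifs.

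Over the 250 bases before the start, 80 windows were listed for 45 of the 50 genes, 16 of them for the 11 tubulin genes. A TATA-like motif stood in 6 of the 16 tubulin windows (37.5%), in 12 of the 80 windows of all 45 genes (15%) and in 19.7% of the 35116 windows of all genes. CCAAT stood in 10 of the 16 tubulin windows (62.5%), in 30 of the 80 windows of all 45 genes (37.5%) and in 32% of all windows. The GC box stood in 10 of 16 (62.5%), in 48 of 80 (60%) and in 42.6% of all windows. Several windows belong to alternative starts of the same gene, and a match is a string of letters, not a tested site.

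At the median, the 48 microtubule genes differed between the substrates by 0.10 log2 units in size, as all genes did. None of the 48 genes, and none of the 12381 genes tested (0%), passed limma's test at an adjusted p under 0.05. At an unadjusted p under 0.05 there were 3 of 48 (6.25%), the lattice-binding genes MAP1A and MAP7 and the kinesin gene KIF3A, all with lower readings on aligned fibers, while 10.5% of all genes reached that level. The members' share lay below that of all genes, so the count is not a result about them. It was 6 without aligned 1 (20.1% of all genes) and 1, MAP7, without random 3 (5.04% of all genes). A fit with array weights, whose estimate raised a convergence warning, gave aligned 2 the weight 15.2, aligned 1 0.38 and aligned 3 0.245. The aligned group thus rested mostly on 1 array. In that fit 6 of the 48 genes and 2101 of all genes had an adjusted p under 0.05 in limma. With aligned 3 left out, 0 of all genes did. In the main fit the median log2 difference of the 48 genes was -0.05, against 0.01 over all genes. Of the 48 differences 31 lay below 0, against 47.5% of all genes.

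The precision limits what these arrays can show. The median standard error over the 48 genes was 0.09 log2 units, and the 95% confidence interval of 43 genes (89.6%) lay wholly within a 1.5-fold difference in either direction, as it did for 87.3% of all genes. The other 5 were TUBA1A, MAP1A, MAP7, DCLK1 and MAPRE2, whose intervals reached 1.5-fold or more on the low side. A difference of at least 0.3 in size occurred in 4 of 48 genes, against 9.85% of all genes.

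**Figure D1:**
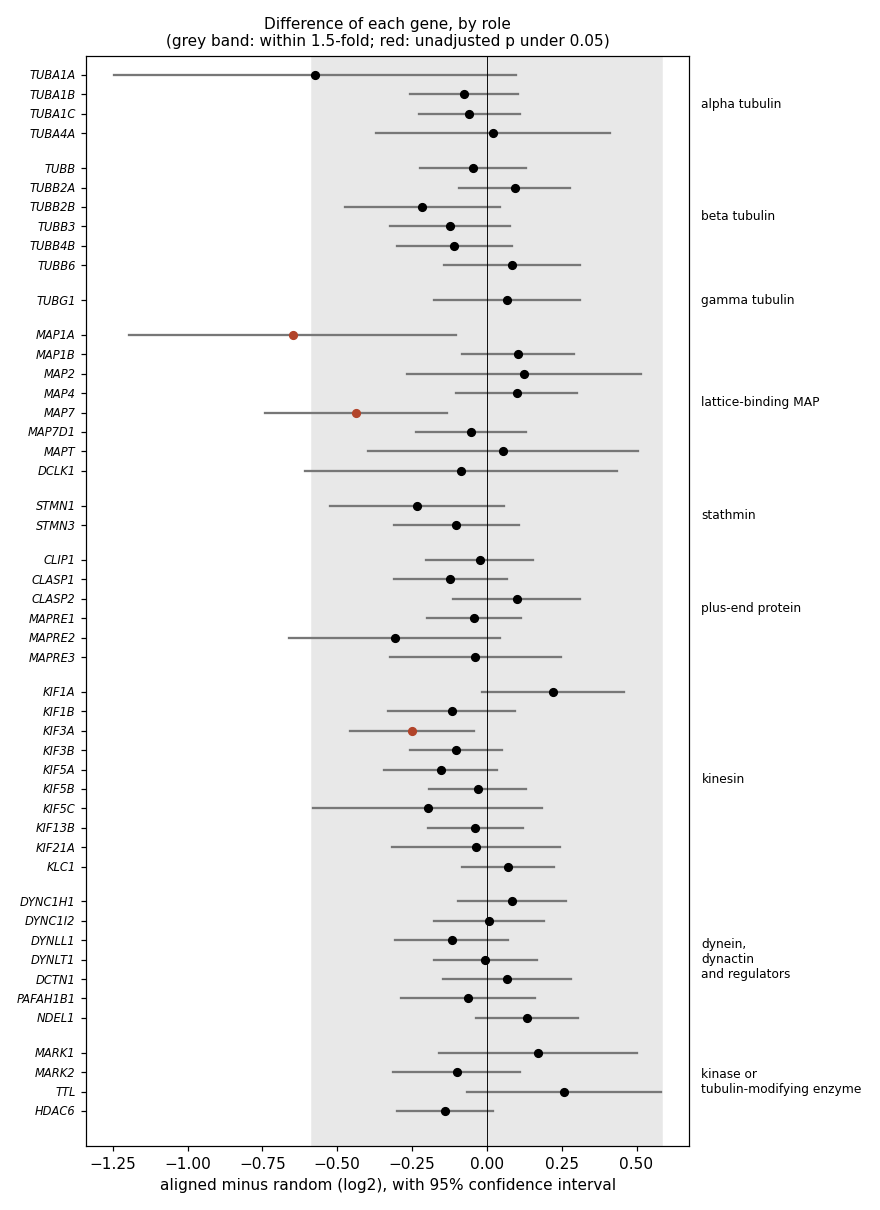
Log2 difference, aligned minus random, of the 48 genes that passed the filter, grouped by role, with the 95% confidence interval of each gene in limma as a bar (3 arrays per group). The grey band marks differences within 1.5-fold. The 3 genes in red (MAP1A, MAP7 and KIF3A) had an unadjusted p under 0.05, and most intervals lie inside the band and cross 0.

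Among the alpha-tubulins, which form the lattice together with beta-tubulin, TUBA1A had the widest scatter. It read 13.11, 12.55 and 11.81 on aligned fibers (arrays 1, 2 and 3, in this order throughout), against 13.14, 13.11 and 12.95 on random fibers. Aligned 1 lay within the range of the random arrays, aligned 2 lay below all of them, and aligned 3 lay lowest. The aligned mean was 12.49 ± 0.65 and the random mean 13.07 ± 0.10 (SD over 3 arrays each), a difference of -0.57 with an interval of -1.25 to 0.10 and an adjusted p of 0.491 in limma (unadjusted p = 0.0835). Without aligned 3 the difference was -0.23, and without aligned 1 it was -0.89. In the limma fit blocked by replicate number the unadjusted p was 0.0447 and the adjusted p 0.362. The labels do not say what arrays of equal number share, so blocked fits are alternatives only.

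The other alpha-tubulins had small differences. TUBA1B, an alpha-tubulin of most cell types, read 14.27, 14.20 and 14.08 on aligned against 14.23, 14.28 and 14.28 on random fibers, which overlapped. Its difference was -0.08 ± 0.08 (SE), and its 5 probe sets that passed the filter differed by -0.09 to -0.06. TUBA1C differed by -0.06. TUBA4A varied more between arrays, with readings of 9.87 to 10.43 on aligned and 9.87 to 10.28 on random fibers. Its difference of 0.02 (interval -0.37 to 0.41) turned to -0.12 without aligned 3. TUBA1B and TUBA1C read close to the highest value on these arrays, which was 14.37 to 14.46 per array, and scanner files that would show saturation were not used here. The coding sequences of these genes are so alike that their probe sets can share signal: those used for TUBA1B and TUBA1C carry the suffix for cross-hybridising probes, and the probe set of TUBA1A the suffix for several transcripts.

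The beta-tubulins gave no member at an unadjusted p under 0.05. TUBB, the major beta-tubulin of dividing cells, read 13.67, 13.63 and 13.53 on aligned and 13.59, 13.67 and 13.71 on random fibers, a difference of -0.05 ± 0.08 (SE) with overlapping groups. TUBB3, a neuronal beta-tubulin that tumour cells also make, had an aligned mean of 12.04 ± 0.07 and a random mean of 12.16 ± 0.12 (SD over 3 arrays each), and TUBB4B differed by -0.11. TUBB2A and TUBB6 had differences of 0.09 and 0.08. TUBB2B had the largest difference of the 6, -0.22 with an interval of -0.47 to 0.04. The 3 aligned readings of TUBB2B, 6.83, 6.58 and 6.96, overlapped with 7.10, 6.93 and 6.98 on random fibers through aligned 3. A further probe set that is annotated to TUBB2A and TUBB2B together differed by 0.07, near the 0.09 of TUBB2A. It can read either gene and so is no check on the TUBB2B set, which carries the suffix for cross-hybridising probes. The gamma-tubulin TUBG1, which nucleates microtubules, read 10.87, 10.96 and 11.13 on aligned and 10.82, 10.86 and 11.09 on random fibers. Its difference of 0.07 became -0.01 without aligned 3.

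The lattice-binding proteins held 2 of the 3 largest differences of the 48 genes in size, beside that of TUBA1A. MAP1A, a neuronal MAP that bundles and stabilises microtubules, read 8.41, 8.06 and 7.63 on aligned against 8.55, 8.41 and 9.08 on random fibers. Aligned 1 and random 2 were nearly equal, and the extremes were aligned 3 and random 3. The aligned mean was 8.03 ± 0.39 and the random mean 8.68 ± 0.36 (SD over 3 arrays each), a difference of -0.65 (interval -1.20 to -0.10, unadjusted p = 0.026, adjusted p = 0.463 in limma). In the fit blocked by replicate number the unadjusted p was 0.0624. The difference was -0.45 without aligned 3, and it ranged down to -0.84 without aligned 1. The unadjusted p stayed under 0.05 in 3 of the 6 fits that each left out 1 array, those without aligned 1, random 1 and random 2. Its other 2 probe sets read below the filter.

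MAP7 (ensconsin), which recruits kinesin-1 to microtubules, read 6.09, 6.15 and 6.06 on aligned against 6.26, 6.56 and 6.78 on random fibers. The groups did not overlap, the aligned arrays were close to each other, and the random arrays were spread. The aligned mean was 6.10 ± 0.05 and the random mean 6.53 ± 0.26 (SD over 3 arrays each), a difference of -0.44 (interval -0.74 to -0.13, unadjusted p = 0.0112, adjusted p = 0.463 in limma). All 3 of its probe sets had negative differences, from -0.44 to -0.19. With each array left out in turn the difference stayed between -0.57 and -0.31, with an unadjusted p under 0.05 in all 6 fits and an adjusted p of at least 0.187. The probe set is dim, at the 60.6th percentile of all probe sets by mean reading.

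The remaining lattice-binding proteins had small differences. MAP1B, the relative of MAP1A that is prominent in growing neurites, read 12.22, 12.19 and 12.11 on aligned and 12.17, 12.06 and 11.97 on random fibers, and its 3 probe sets differed by 0.08 to 0.12. MAP4, the ubiquitous MAP of non-neuronal cells, had 6 probe sets above the filter, all with positive differences between 0.05 and 0.25. The dendritic protein MAP2 differed by 0.12, which turned to -0.08 without aligned 3, tau (MAPT) by 0.05 and MAP7D1 by -0.05. DCLK1, a kinase with a doublecortin domain that binds microtubules, differed by -0.09 in the probe set used and by 0.42 in its other kept probe set, and the set used turned to 0.13 without aligned 3. DCX (doublecortin), the MAP of migrating neurons, read 3.30 to 3.43 on aligned and 3.30 to 3.53 on random fibers and did not pass the filter.

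**Figure D2:**
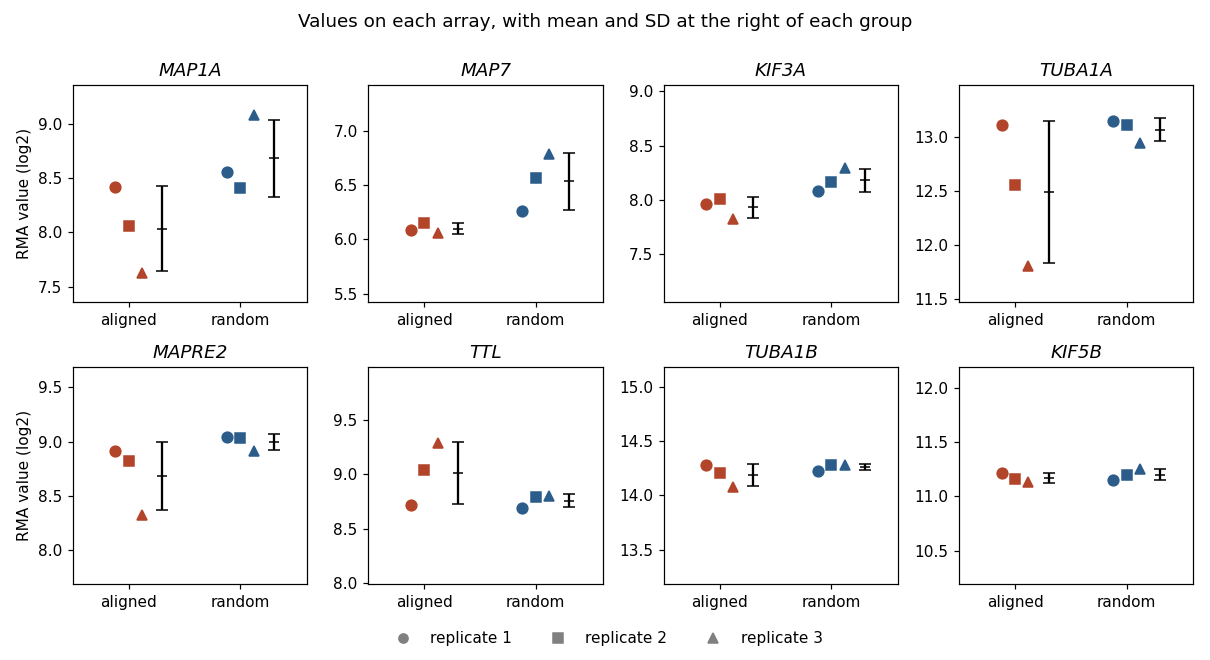
RMA values (log2) of 8 genes on each array, aligned at the left and random at the right of each panel, with the mean and SD beside each group (3 arrays each); symbols give the replicate number, and every panel spans 2 log2 units. Aligned 3 is the highest array for TTL and the lowest in every other panel. The groups are apart for MAP7, KIF3A and, narrowly, MAPRE2, and the arrays of TUBA1B and KIF5B nearly coincide.

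The stathmins, which hold free tubulin dimers and promote depolymerisation, were represented by STMN1 and STMN3. STMN1, which is abundant in proliferating cells, read 9.92, 9.96 and 9.84 on aligned and 9.94, 10.07 and 10.41 on random fibers. The groups overlapped and random 3 lay highest. The difference was -0.23 (interval -0.52 to 0.06), and it was -0.10 without random 3. A second STMN1 probe set, annotated also to the microRNA gene MIR3917 and so not used to name a gene, differed by -0.21. STMN3 differed by -0.10, and the neuronal STMN2 read 3.45 to 3.79 on aligned and 3.56 to 3.64 on random fibers, below the filter.

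Kinesins of the mitotic spindle are given beside STMN1 as markers of dividing cells. All 13 had negative differences, as 47.5% of all genes did, with a median of -0.28, or -0.17 without aligned 3. By replicate number the median was 0.03 for number 1, -0.10 for number 2 and -0.68 for number 3. Their mean reading per array was 8.86 to 9.17 on aligned and 9.13 to 9.66 on random fibers. Random 3 was the highest array for every 1 of the 13 genes, so their common direction leans on this array too. KIF20A, for example, read 10.11, 10.18 and 10.79 on random fibers. Of these 13, KIF20A at -0.68 and KIFC1 at -0.30 had an unadjusted p under 0.05, which is 15.4% against 10.5% of all genes, and 0 passed the adjusted test in limma. The part of cell division in the STMN1 reading was not tested, and in bulk RNA fewer cells of a kind and less RNA per cell cannot be told apart.

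Of the plus-end proteins, MAPRE1 (EB1), the core tracker of growing ends, read 12.088, 12.071 and 12.003 on aligned and 12.087, 12.127 and 12.078 on random fibers. Its difference was -0.04 ± 0.07 (SE), with an interval of -0.20 to 0.11. Its paralog MAPRE2 (EB2) read 8.91, 8.82 and 8.33 on aligned against 9.04, 9.03 and 8.91 on random fibers. Every aligned array lay below every random array, although aligned 1 and random 3 both rounded to 8.91. The difference was -0.31 (interval -0.66 to 0.04, unadjusted p = 0.0768, adjusted p = 0.486 in limma), its second kept probe set differed by -0.21, and without aligned 3 the difference was -0.13. In the fit blocked by replicate number the unadjusted p was 0.0351 and the adjusted p 0.362. MAPRE3 (EB3) and CLIP1 (CLIP-170) differed by -0.04 and -0.02. CLASP1 and CLASP2, which rescue shrinking microtubules and anchor them at the cell edge, had differences of -0.12 and 0.10, and the probe sets of each gene that passed the filter agreed in sign.

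Among the kinesins, KIF3A and KIF3B, the motor subunits of kinesin-2, a motor of cilium assembly, had no overlap between the groups. KIF3A read 7.96, 8.01 and 7.82 on aligned against 8.08, 8.17 and 8.29 on random fibers, a difference of -0.25 (interval -0.46 to -0.04, unadjusted p = 0.0242, adjusted p = 0.463 in limma). Its second probe set differed by -0.06. KIF3B read 9.63, 9.65 and 9.57 on aligned and 9.71, 9.73 and 9.71 on random fibers, a difference of -0.10 ± 0.07 (SE), with -0.10 in its second probe set. The KIF3A difference had an unadjusted p under 0.05 when aligned 1, aligned 2 or random 1 was left out and not without aligned 3, random 2 or random 3. RefSeq lists a single start for KIF3A, and the 150 bases before it (chr5:132737547-132737696, minus strand) hold the GC box, in capitals.
KIF3A: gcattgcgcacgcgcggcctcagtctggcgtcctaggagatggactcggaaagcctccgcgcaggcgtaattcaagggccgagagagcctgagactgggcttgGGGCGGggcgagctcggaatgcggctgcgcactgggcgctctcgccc

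Kinesin-1, the main cargo motor toward plus ends, showed differences near 0 in its broadly expressed chains. KIF5B, the ubiquitous heavy chain, read 11.21, 11.16 and 11.13 on aligned and 11.15, 11.20 and 11.25 on random fibers, a difference of -0.03 ± 0.07 (SE). The light chain KLC1 read 9.15, 9.19 and 9.17 on aligned and 9.07, 9.13 and 9.09 on random fibers. These did not overlap, but the difference was 0.07 with an interval of -0.08 to 0.22. The neuronal heavy chain KIF5A read 6.04, 5.90 and 5.95 on aligned and 6.05, 6.08 and 6.23 on random fibers, apart by less than 0.01 at the nearest pair and by -0.15 on average. KIF5C differed by -0.20 and by 0.00 without aligned 3. Of the kinesin-3 motors, the synaptic vesicle carrier KIF1A differed by 0.22 (interval -0.02 to 0.46), KIF1B by -0.12 and KIF13B by -0.04. The growth-limiting kinesin-4 motor KIF21A differed by -0.04.

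Dynein, the motor toward minus ends, and its partners had small differences in the probe sets used. The 7 genes differed by -0.12 to 0.13, and all 7 intervals lay inside 1.5-fold. The light chain DYNLL1 read 12.024, 12.002 and 12.094 on aligned and 12.070, 12.124 and 12.281 on random fibers, which overlapped. NDEL1, a dynein regulator needed for nuclear movement in migrating cells, read 9.43, 9.47 and 9.56 on aligned and 9.31, 9.41 and 9.35 on random fibers. Its groups did not overlap, at a difference of 0.13 ± 0.07 (SE) and an adjusted p of 0.506 in limma. The heavy chain DYNC1H1 differed by 0.08, and its 3 kept probe sets ranged from 0.08 to 0.36. The intermediate chain DYNC1I2 differed by 0.01, the light chain DYNLT1 by -0.01 and the dynactin subunit DCTN1 by 0.07. PAFAH1B1 (LIS1), the partner of NDEL1, differed by -0.06, and its 4 probe sets ranged from -0.26 to -0.06. A probe set shared between DCTN1 and SLC4A5 was left out and differed by 0.06.

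Among the enzymes, tubulin tyrosine ligase (TTL), which restores the terminal tyrosine of alpha-tubulin, read 8.72, 9.04 and 9.29 on aligned and 8.69, 8.79 and 8.80 on random fibers. Aligned 2 and 3 lay above all random arrays and aligned 1 among them. The difference was 0.26 (interval -0.07 to 0.58, adjusted p = 0.506 in limma), and 0.12 without aligned 3. Its other kept probe sets differed by 0.14 and 0.01. HDAC6, the deacetylase of alpha-tubulin, read 7.77, 7.75 and 7.72 on aligned against 7.88, 7.83 and 7.94 on random fibers, which did not overlap, at a difference of -0.14 (interval -0.30 to 0.02). Its second kept probe set differed by 0.02. MARK1 and MARK2, kinases that release MAPs from the lattice, differed by 0.17 and -0.10, and the 2 kept probe sets of MARK1 had opposite signs.

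In 8 of 48 genes (16.7%) the 3 aligned arrays lay wholly to one side of the 3 random arrays, against 18% of all genes. They were KLC1 and NDEL1 above, where all genes gave 8.71%, and MAP7, MAPRE2, KIF3A, KIF3B, KIF5A and HDAC6 below, where all genes gave 9.33%.

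The array of aligned 3 was often at an extreme. It was the lowest of the 6 arrays in 24 of the 48 genes (26.5% of all genes) and the highest in 13 (33.5% of all genes). It was thus an extreme in 77.1% of them, against 60% of all genes. Random 3 was the highest array in 19 of the 48 genes, against 24.8% of all genes, and the lowest in 4, against 19%. The root mean square distance of aligned 3 from the random mean over the 48 genes was 0.35, against 0.15 for aligned 1 and 0.18 for aligned 2. The median difference over the 48 genes was 0.01 for replicate number 1, -0.06 for number 2 and -0.13 for number 3. Without aligned 3 it was -0.02, and 2 of the 48 genes, MAP7 and TUBB2B, then had an unadjusted p under 0.05, against 6.58% of all genes.

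**Figure D3:**
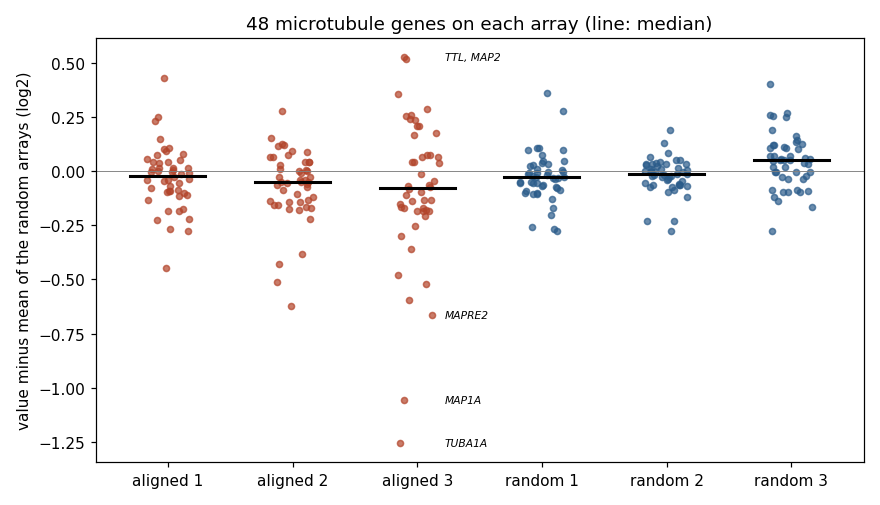
Deviation of each of the 48 genes from its mean over the random arrays (log2), per array, with the median of the genes as a line; a point is a gene and is shifted sideways only for display. The spread is widest on aligned 3, where TUBA1A, MAP1A and MAPRE2 lie lowest and TTL and MAP2 highest.

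Separate probe sets of the same gene mostly gave the same sign. Of the 48 genes 29 had several probe sets above the filter, and in 24 of these all differences had the same sign. The 5 with mixed signs were DCLK1, CLIP1, MAPRE3, MARK1 and HDAC6. All 5 tubulin genes with several kept probe sets, TUBA1B, TUBA1C, TUBB, TUBB3 and TUBB4B, had negative differences in each, from -0.18 to -0.03. Except for a TUBB set, these sets carry the suffix for cross-hybridising probes, so the genes can share signal. Of the tubulin genes with 1 kept set, TUBA1A and TUBB2B had negative differences and TUBA4A, TUBB2A, TUBB6 and TUBG1 positive ones. Probe sets of a gene read the same RNA and are no replicates.

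**Figure D4:**
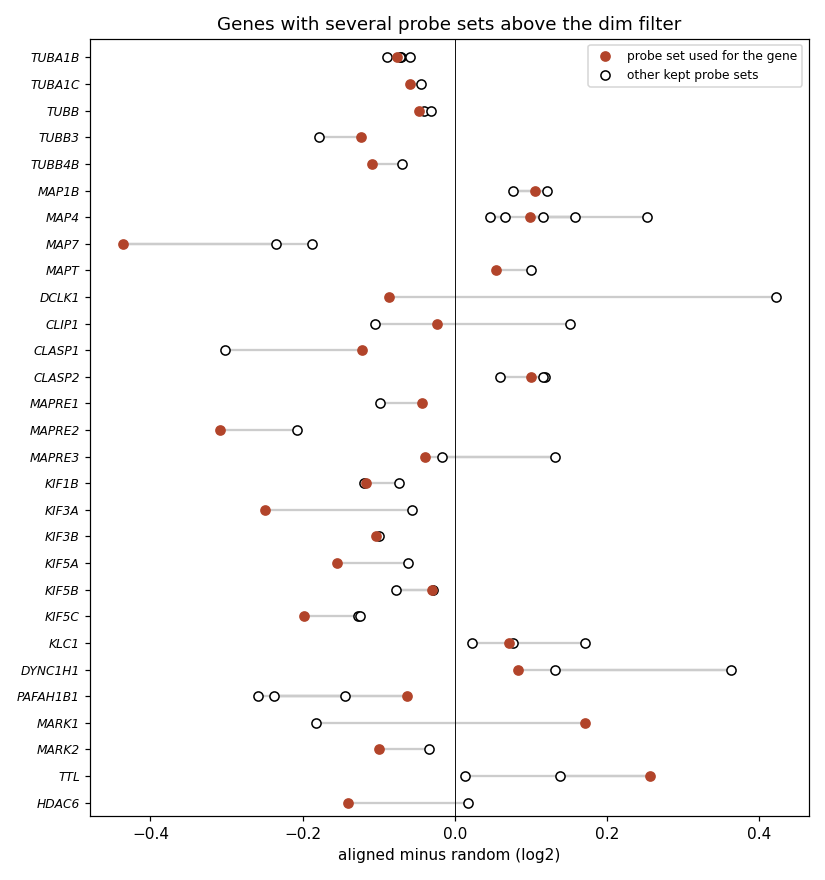
Log2 difference, aligned minus random, of every probe set above the filter for the 29 genes that have several; the filled point is the probe set used for the gene and open points are the others. DCLK1 and MARK1 have points far apart on both sides of 0, and the tubulin genes have tight groups left of 0.

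No gene was lost to probe sets with several symbols, since all 50 genes also had a probe set with 1 symbol. The sets left out for this reason were 3, shared by TUBB2A and TUBB2B, by STMN1 and MIR3917, and by DCTN1 and SLC4A5.

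The rest of the microtubule system was followed in a second list of 108 genes, of which 102 had a probe set with 1 symbol and 90 passed the filter. Of the 90, 0 passed over all genes in limma. At an unadjusted p under 0.05 there were 2 with higher readings on aligned fibers (against 4.72% of all genes) and 8 with lower ones (against 5.81%), and the median difference was -0.0048. Omission of aligned 1 moved the count of 10 to 16, that of aligned 3 to 6, and that of random 2 or of random 3 to 2. The 10 genes follow by role.

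Severing enzymes cut the microtubule lattice. FIGN (fidgetin) read 7.65, 7.96 and 7.23 on aligned against 8.01, 8.43 and 8.47 on random fibers, with no overlap and a difference of -0.69 ± 0.20 (SE). It had the smallest unadjusted p of this list, 0.00958, with an adjusted p of 0.463 in limma, and its difference was -0.50 without aligned 3. SPAST (spastin) differed by -0.27 and the katanin relative KATNAL1 by -0.24.

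Epsilon-tubulin (TUBE1), a tubulin of centrioles, had the largest positive difference of the 90 genes, 0.95 ± 0.37 (SE). It read 7.90, 8.58 and 9.61 on aligned against 7.81, 7.71 and 7.73 on random fibers. The random arrays were nearly equal, the aligned arrays lay above them and far apart, and without aligned 3 the difference was 0.49. Delta-tubulin (TUBD1) differed by -0.27.

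Of the tip and cargo proteins, the dynein intermediate chain DYNC1I1, an isoform known from neurons, read 10.77, 10.78 and 9.93 on aligned against 10.87, 11.27 and 11.39 on random fibers. Its difference was -0.68 ± 0.25 (SE), and -0.40 without aligned 3, beside a difference of 0.01 for the ubiquitous DYNC1I2. The plus-end protein SLAIN1 differed by -0.43 and CLIP3, a relative of CLIP1, by -0.66, which was -0.32 without aligned 3. TRAK2, which ties mitochondria to motors, differed by 0.26 ± 0.08 (SE), and AGBL5, which trims glutamates from tubulin, by -0.21. Of the 6 neuronal markers above the filter, 2 had an unadjusted p under 0.05, in opposite directions, against 10.5% of all genes. The neurofilament gene NEFL read 8.23, 7.61 and 6.13 on aligned and 8.61, 8.66 and 8.85 on random fibers, a difference of -1.38 that was -0.79 without aligned 3, and the synaptic vesicle gene SYT1 differed by 0.56. The part of neuronal-type transcripts in the readings of MAP1A and DYNC1I1 was not tested.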

How the data were processed

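Total RNA of 6 cultures was measured on 6 HG-U133 Plus 2 arrays (Affymetrix), with 10 µg RNA for each, per the labels' protocols. The deposited table holds log2 values for 54675 probe sets, made by the authors with RMA, per the submitters' processing notes; its version is not given in the sources used here. The 62 control probe sets were set aside. Probe sets below their array's median on more than 3 of the 6 arrays were left out. Gene names came from the platform annotation: 41091 probe sets had 1 symbol, 1801 several and 11721 none, and all 50 genes matched the RefSeq gene table.

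Aligned minus random was fitted over 12381 genes by linear models with moderated variances (limma 3.58.1, R 4.3.3), without covariates, and adjusted by Benjamini-Hochberg at 0.05. Intervals are unadjusted, two-sided and at 95%. The number of arrays limits the precision. The code was tested on simulated data. Figures used matplotlib 3.10.9.

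Genes, lists and tests were chosen with earlier results of these data known. Values on all arrays are given for genes with an unadjusted p under 0.05, a difference of at least 0.3, groups that do not overlap, or the highest reading in their role; TUBB2B was added after its values were seen. Of the second list, genes with an unadjusted p under 0.05 are named, up to 8 per direction.

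Replicate numbers occur in both groups and the labels do not say what they share. Deviations from group means correlated by 0.369, 0.322 and 0.109 between equal numbers, all above a limit of 0.1. They correlated by 0.188 between aligned 2 and random 3, more than for number 3, so they do not settle a pairing. Alternatives were the filter, centring, quantile normalization run again, a prior that is trended and robust, the replicate block, array weights, the mean of probe sets, omission of shared-sequence suffixes, and each array left out.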

Additional observations from a re-analysis of the deposited data

How the results depend on the processing

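With each array left out in turn, the microtubule genes at an unadjusted p under 0.05 numbered 1 (without random 3) to 6 (without aligned 1), and the genes whose groups did not overlap numbered 11 to 20, partly because fewer arrays separate more easily. Their median difference ranged from -0.0771 (without random 1) to -0.0244 (without aligned 3). Over all genes the unadjusted count of 1303 ranged from 624 (without random 3) to 2491 (without aligned 1), and that of the second list from 2 (without random 2 or random 3) to 16 (without aligned 1). Without aligned 3 it was 6, and the count over all genes 815. It was 739 over all genes without random 2. TUBG1 turned to -0.00559 without aligned 3 and reached 0.149 without random 3. MAP2 (-0.08), DCLK1 (0.13) and TUBA4A (-0.12) also turned sign without aligned 3, and KIF5C came to 0.00.

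With the replicate block, 4 microtubule genes reached an unadjusted p under 0.05 in limma (KIF3A, MAP7, MAPRE2 and TUBA1A), 14 of the second list and 1687 of all genes, with 0 at the adjusted threshold. Array weights gave 17 of 48, 25 of the second list and 4326 of all genes, with 2101 of all genes and 6 of the 48 at the adjusted threshold (TUBB2B, MAP7, TUBA1A, TTL, MAP1A and KIF5A); that fit gave aligned 2 the weight 15.2 and aligned 3 the weight 0.245, and the estimate of the weights stopped with a convergence warning. A filter at the 75th percentile tested 7804 genes and left 851 at an unadjusted p under 0.05. Without probe sets of shared sequence 30 of the genes remained, of which 5 did not overlap. Averaging the kept probe sets of each gene left MAP1A and MAP7 at an unadjusted p under 0.05 and not KIF3A. No other alternative gave a gene at the adjusted threshold.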

Other observations

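Probe sets not used for their gene gave further values at an unadjusted p under 0.05 in the limma fit over probe sets, where 2676 of 27621 (9.69%) reached that level and 5 of the 100 kept probe sets of the microtubule genes did (5%). Besides the sets of MAP1A, MAP7 and KIF3A these were a second set of the dynein heavy chain gene DYNC1H1, with readings of 8.44, 8.44 and 8.36 on aligned against 8.31, 8.01 and 7.83 on random fibers, and a second set of PAFAH1B1 (LIS1), with 9.96, 10.06 and 9.75 on aligned against 10.10, 10.16 and 10.22 on random fibers. The DYNC1H1 set differed by 0.36 and the PAFAH1B1 set by -0.24, larger in size than the 0.08 and -0.06 of the sets used for these genes, and both had an adjusted p above 0.5. The set annotated to STMN1 and MIR3917, which is not among the 100, differed by -0.21 with an unadjusted p of 0.0358 and an adjusted p of 0.513 in limma. These sets were named after their values were seen.

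MAP1A, the gene with the largest difference in size among the 48, has 2 listed starts in RefSeq (GRCh38.p14). The 150 bases before the start nearest its 3′ end (chr15:43517458-43517607, plus strand) hold GC boxes, in capitals, and neither CCAAT nor a TATA-like motif.
MAP1A: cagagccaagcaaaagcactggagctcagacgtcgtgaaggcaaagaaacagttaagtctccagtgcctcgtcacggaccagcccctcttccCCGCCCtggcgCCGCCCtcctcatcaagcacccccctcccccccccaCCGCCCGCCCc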
